A study of Mus musculus with 12 samples.

Results

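Replication of the genome in S phase is carried out by a set of proteins that act in a fixed order. The origin recognition complex, Cdc6 and Cdt1 load the MCM helicase on DNA before S phase, Cdc45 and the GINS complex then activate it, and polymerases, the sliding clamp Pcna with its loader, single-strand binding proteins and flap-processing enzymes copy the strands on deoxynucleotides made by ribonucleotide reductase. Erythroid precursors divide several times while they mature, and many genes of this machinery are known targets of E2F transcription factors. The genes described here are 45 named replication and S phase genes, chosen by name as licensing, fork and nucleotide supply genes, among 30701 genes that the array features name. By role they comprise 10 genes of origin licensing, 6 of helicase activation, 8 of polymerases and primase, 6 of the clamp and its loader, 3 of single-strand binding, 3 of Okazaki fragment maturation and resection, 2 of ribonucleotide reductase, 3 of chromatin assembly and histone mRNA, and 4 of fork protection, checkpoint or S phase regulation. Of them, 44 have a feature of their own, and all 44 passed the filter on low values, each on all 12 arrays. The feature of Mcm7, a subunit of the MCM helicase, also names Mir25 and Mir93, so its values are given but not tested.

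Splenic erythroblasts were collected by sorting from male mice fed a selenium-deficient or a selenium-adequate diet for 3 months, on day 3 after phenylhydrazine, a drug that lyses red cells and so forces rapid red cell production in the spleen. The groups are selenium-deficient proerythroblasts, selenium-adequate proerythroblasts, selenium-deficient basophilic erythroblasts and selenium-adequate basophilic erythroblasts, with 3 arrays each. Proerythroblasts are the earliest recognisable red cell precursors and basophilic erythroblasts are the next stage. All mice received phenylhydrazine, and the labels give no untreated group, no strain and no count of mice or pools. Nothing in the labels says that replicates came from separate mice, so p-values measure only the spread between these arrays, which may be technical. In sorted bulk samples such as these, fewer cells in S phase and less of each transcript per cell cannot be told apart.

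To show the regulatory sequence these genes share, the windows from 250 bases before to 50 bases after the annotated start (RefSeq, build GRCm38.p6) were searched for E2F-type motifs (the letters TTCCCGC, also TTGGCGC, also TTGCCGC and also TTCGCGC) and for the CCAAT box (the letters CCAAT), on both strands, with overlapping matches counted separately. A window was found for 36 of the 45 genes. Of these, 27 (75%) held an E2F-type motif, against 16.6% of the 12510 genes tested on the arrays that have a window, and 10.9% of all 27025 genes with a window (a gene with several windows counts if any of them holds the motif). A CCAAT box stood in 24 (66.7%), against 41.4% of genes tested and 41.1% of all genes with a window, and 17 (47.2%) held both, against 7.59% and 4.85%. The 6 windows printed belong to genes whose values are given below or that show the motif arrangements most plainly. Capitals mark the motifs as read on the gene's strand, so that a motif on the other strand appears as its reverse complement (as GCGGGAA does for the E2F type, and ATTGG for the CCAAT box). Mcm6 (chr1:128359656-128359955, minus strand) holds 5 overlapping or separate E2F-type matches and 2 CCAAT boxes, Mcm3 (chr1:20820263-20820562, minus strand) holds 3 of each, and Dtl (chr1:191575495-191575794, minus strand) holds 2 E2F-type matches and 1 CCAAT box. Rpa3 (chr6:8259092-8259391, minus strand) holds 1 E2F-type match and 2 CCAAT boxes, Rrm2 (chr12:24708004-24708303, plus strand) holds 1 of each, and Cdca7 (chr2:72475969-72476268, plus strand) holds 1 E2F-type match and no CCAAT box.
Mcm6: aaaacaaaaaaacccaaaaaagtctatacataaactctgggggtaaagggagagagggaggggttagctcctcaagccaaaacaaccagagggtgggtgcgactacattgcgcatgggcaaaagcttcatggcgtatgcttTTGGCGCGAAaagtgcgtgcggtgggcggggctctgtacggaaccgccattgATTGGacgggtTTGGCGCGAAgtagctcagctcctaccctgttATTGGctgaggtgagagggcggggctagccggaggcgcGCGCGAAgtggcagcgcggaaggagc
Mcm3: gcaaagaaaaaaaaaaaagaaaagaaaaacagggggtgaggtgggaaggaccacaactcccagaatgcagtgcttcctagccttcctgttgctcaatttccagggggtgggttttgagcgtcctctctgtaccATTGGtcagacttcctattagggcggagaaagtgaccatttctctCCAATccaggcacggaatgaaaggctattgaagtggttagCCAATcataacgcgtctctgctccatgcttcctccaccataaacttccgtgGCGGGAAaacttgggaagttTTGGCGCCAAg
Dtl: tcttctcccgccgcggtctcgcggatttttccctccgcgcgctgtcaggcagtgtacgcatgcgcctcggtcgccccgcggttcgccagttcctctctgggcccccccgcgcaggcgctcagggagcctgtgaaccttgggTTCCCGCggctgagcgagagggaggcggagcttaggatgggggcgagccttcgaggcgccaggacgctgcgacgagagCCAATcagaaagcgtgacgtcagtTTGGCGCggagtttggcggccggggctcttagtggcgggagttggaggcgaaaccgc
Rpa3: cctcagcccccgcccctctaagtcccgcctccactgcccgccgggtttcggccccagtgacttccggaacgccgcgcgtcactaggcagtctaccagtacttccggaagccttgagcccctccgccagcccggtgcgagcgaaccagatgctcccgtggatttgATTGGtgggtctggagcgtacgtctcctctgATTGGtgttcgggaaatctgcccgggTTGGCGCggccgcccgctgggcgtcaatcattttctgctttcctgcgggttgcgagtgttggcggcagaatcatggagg
Rrm2: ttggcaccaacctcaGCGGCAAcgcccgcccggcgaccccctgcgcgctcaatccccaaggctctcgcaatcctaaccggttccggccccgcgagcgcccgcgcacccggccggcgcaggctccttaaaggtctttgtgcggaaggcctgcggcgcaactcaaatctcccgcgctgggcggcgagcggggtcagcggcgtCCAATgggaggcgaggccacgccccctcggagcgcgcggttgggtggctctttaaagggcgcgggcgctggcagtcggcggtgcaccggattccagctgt
Cdca7: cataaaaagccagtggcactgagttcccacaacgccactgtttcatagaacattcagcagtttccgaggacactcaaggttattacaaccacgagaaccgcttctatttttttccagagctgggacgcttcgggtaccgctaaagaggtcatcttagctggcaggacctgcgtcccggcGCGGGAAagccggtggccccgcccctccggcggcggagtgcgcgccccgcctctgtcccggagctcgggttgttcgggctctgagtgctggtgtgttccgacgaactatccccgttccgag
A match describes letters in the window, not binding by a factor.

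Replicate 2 of both basophilic groups stood apart on the arrays. The median of 23 background features was 3.73, 4.70 and 3.75 in deficient basophilic erythroblasts (replicates 1, 2 and 3, log2 scale) and 3.63, 4.19 and 3.80 in adequate basophilic erythroblasts, while all 6 proerythroblast arrays lay between 3.31 and 3.53. The interquartile range of the log2 values was 2.17 and 2.25 on those 2 arrays, against 2.43 to 2.49 on the other basophilic arrays. Replicate 3 of the deficient basophilic group is labelled basophilic by title and cell type, but its description names proerythroblasts. It correlated at 0.991 with deficient basophilic replicate 1 and at 0.945 to 0.946 with the deficient proerythroblast arrays, and was kept as basophilic. The 10 measured markers of later erythroid cells averaged 10.87 to 11.10 per array in deficient proerythroblasts and 9.91 to 10.23 in adequate proerythroblasts (mean log2 signal), and 11.36 to 11.66 in deficient and 11.53 to 11.76 in adequate basophilic erythroblasts. Between the diets in proerythroblasts 7 of the 10 were called higher on the deficient diet, where 1.27% of all genes were, and 3 did not pass. Their log2 differences ran from -0.11 to 1.79. The 7 early markers averaged 7.22 to 7.39 in deficient and 8.02 to 8.10 in adequate proerythroblasts, but did not move together: of 6 tested, Kit, Myb, Cdk6 and Sox4 fell on the deficient diet, Gata2 did not pass, and Tfrc rose, with 10.47, 10.53 and 10.64 in deficient and 9.69, 9.65 and 9.39 in adequate proerythroblasts. Neutrophil markers (12 genes, all 12 above the filter value by group mean in both proerythroblast groups) averaged 7.23 to 7.96 in deficient and 6.85 to 8.14 in adequate proerythroblasts, and 6.42 to 6.79 in deficient and 6.08 to 6.54 in adequate basophilic erythroblasts. Of them, Mmp9 passed between the diets in proerythroblasts and none did in basophilic erythroblasts, and their part in the results was not tested.

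Across the 44 genes, the mean log2 signal per array was 9.78, 9.40 and 9.57 in deficient proerythroblasts, against 9.69, 9.61 and 9.44 in adequate proerythroblasts. It was 8.78, 7.44 and 8.76 in deficient basophilic erythroblasts and 9.30, 8.36 and 9.06 in adequate basophilic erythroblasts. The proerythroblast groups overlapped, and each deficient basophilic array lay below the adequate one of the same replicate number. Mcm7, on its shared feature, gave 10.07, 9.71 and 9.87 in deficient and 9.99, 9.81 and 9.81 in adequate proerythroblasts, then 9.08, 8.05 and 9.02 in deficient and 9.72, 8.70 and 9.39 in adequate basophilic erythroblasts. Replicate 2 was the lowest array of each basophilic group for Mcm7, as for the mean of the 44 genes.

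**Figure D1:**
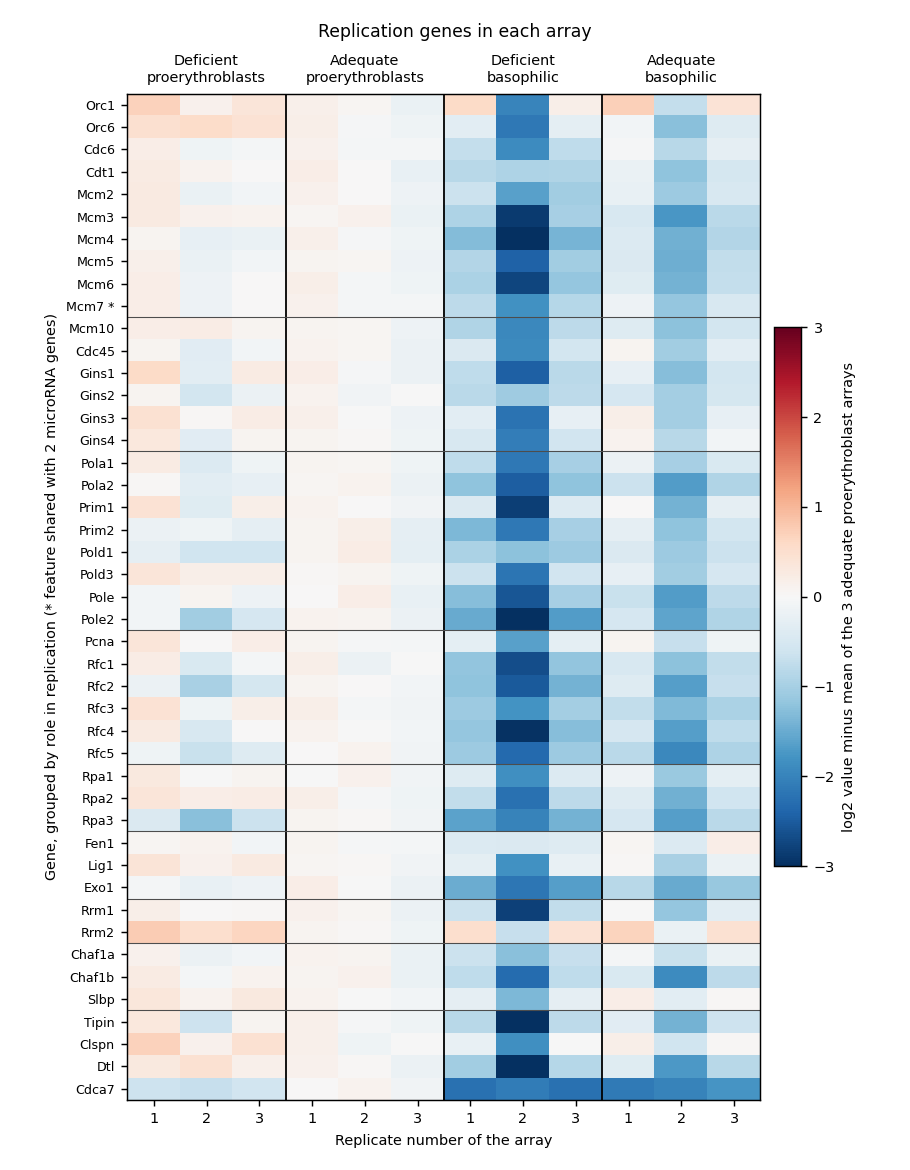
Heat map of the replication genes (rows, ordered by role) on the 12 arrays (columns, by group), coloured by log2 signal minus the mean of the 3 adequate proerythroblast arrays, on a scale cut at -3 and 3. Replicate 2 of both basophilic groups forms the bluest column of its group for most genes, with means over the 44 genes of 7.44 (deficient) and 8.36 (adequate), and the 6 proerythroblast columns differ little.

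The first comparison asks how selenium status changed these genes in proerythroblasts. Most of them differed little: the log2 differences, deficient minus adequate, ran from -0.77 (Rpa3) to 0.63 (Rrm2), with 24 positive, 20 negative and a median of 0.02, equal to the median of 0.02 over all 20129 genes tested. Only Cdca7 passed the test (limma, Benjamini-Hochberg adjusted over all genes, threshold 0.05), and it fell. That is 1 of 44 genes, where 4.02% of all genes tested passed in either direction and 2.76% passed as lower. Cdca7, a chromatin factor that works with the remodeller Hells in keeping DNA methylated, had 8.66, 8.59 and 8.70 in deficient proerythroblasts, against 9.28, 9.37 and 9.16 in adequate proerythroblasts (log2 signal). Every deficient array lay below every adequate one, and the log2 difference was -0.62 (SE 0.12, limma adjusted p = 0.0162, n = 3 arrays each). The call was lost on leaving out deficient replicate 2 or 3 or adequate replicate 1 or 2 of the proerythroblasts, with adjusted p up to 0.0938.

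The other 4 genes with the smallest p in proerythroblasts did not pass. Rpa3, the smallest subunit of the single-strand binding protein RPA, had 8.18, 7.36 and 7.98 in deficient and 8.69, 8.65 and 8.50 in adequate proerythroblasts, a log2 difference of -0.77 (SE 0.29, limma adjusted p = 0.205). Its groups did not overlap, and deficient replicate 2 was the lowest. Pold1, the catalytic subunit of polymerase delta, had 8.79, 8.46 and 8.45 in deficient and 9.13, 9.27 and 8.76 in adequate proerythroblasts (log2 difference -0.49, SE 0.19, limma adjusted p = 0.253). Deficient replicate 1 lay just above adequate replicate 3. Rrm2, the small subunit of ribonucleotide reductase whose level follows S phase, had 10.79, 10.53 and 10.68 in deficient and 10.12, 10.08 and 9.90 in adequate proerythroblasts (log2 difference 0.63, SE 0.30, limma adjusted p = 0.378). All 3 deficient arrays were above all 3 adequate ones. Rfc2, a subunit of the clamp loader, had 9.55, 8.76 and 9.21 in deficient and 9.82, 9.73 and 9.64 in adequate proerythroblasts (log2 difference -0.56, SE 0.37, limma adjusted p = 0.656), again without overlap.

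Groups did not overlap for 6 genes that were higher in deficient proerythroblasts (Orc6, Pold3, Rpa2, Lig1, Rrm2 and Dtl), where 15.5% of all genes did the same, and for 4 that were lower (Rfc2, Rfc5, Rpa3 and Cdca7), where 15.6% did. By role, the medians of the log2 differences lay between -0.14 for polymerases and primase and 0.35 for ribonucleotide reductase. Deviations from group means correlated at 0.46, 0.18 and 0.52 between same-numbered proerythroblast arrays of the 2 diets, against -0.40 to 0.08 for unlike numbers. With the replicate number as a block within each stage Rrm2 was called higher (limma adjusted p = 0.0124), where 4.04% of all genes were. Cdca7 (0.0116), Rpa3 (0.0272), Rfc2 (0.0328) and Pold1 (0.0477) were called lower in that fit, where 7.05% of all genes were. Without replicate 2 of both basophilic groups, which leaves these 6 arrays as they are but lowers the shared estimate of spread, Rrm2 (limma adjusted p = 0.00297) and Orc6 (0.0133), a subunit of the origin recognition complex, were called higher. Cdca7 (0.00345) and Rpa3 (0.0238) were called lower in that fit, where 6.97% of all genes were called higher and 9.38% lower.

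**Figure D2:**
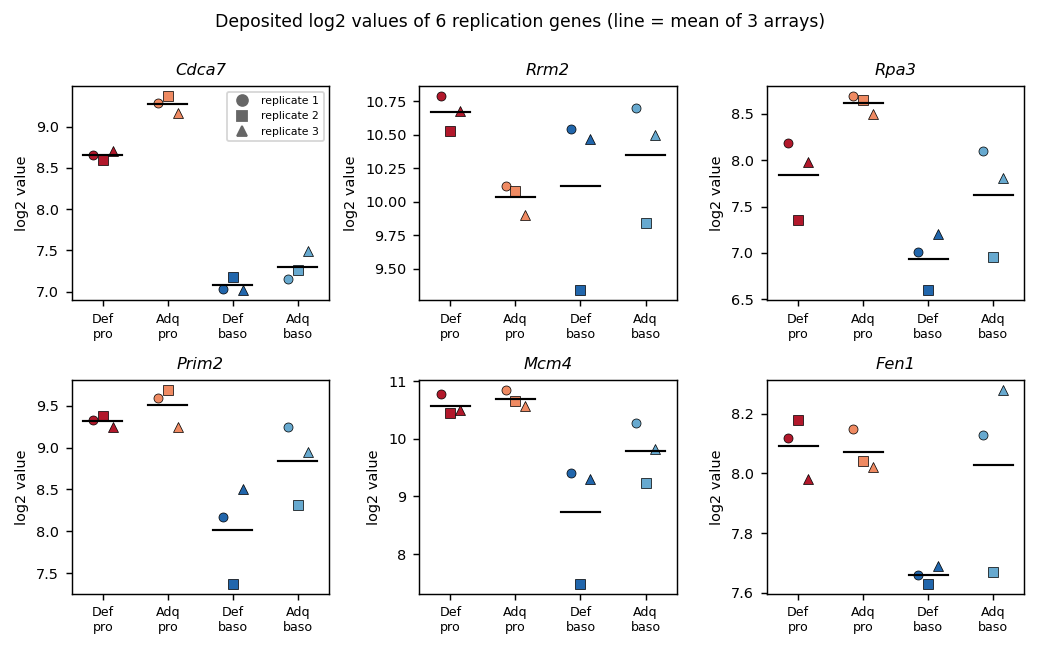
Log2 signal (vertical axis) of Cdca7, Rrm2, Rpa3, Prim2, Mcm4 and Fen1 on each array, with deficient left of adequate within each stage; points are arrays (circle, square and triangle for replicates 1, 2 and 3; Def and Adq are the deficient and adequate diet) and lines are group means. Cdca7 is lower in all 3 deficient proerythroblast arrays (8.59 to 8.70) than in the adequate ones (9.16 to 9.37), and for Mcm4 the deficient basophilic replicate 2 lies lowest at 7.48.

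In basophilic erythroblasts all 44 genes had lower means on the deficient than on the adequate diet, and none passed the test on all 12 arrays. The log2 differences ran from -1.08 (Pole2) to -0.20 (Gins2) with a median of -0.56, while the median over all genes tested was 0.04. In limma, 11 of the 44 had an unadjusted p under 0.05, as did 1305 of the 20129 genes tested, and 0.0199% of all genes tested passed after adjustment. Every gene of every role was lower in mean, and role medians ran from -0.70 for fork protection, checkpoint and S phase regulation to -0.40 for Okazaki fragment maturation and resection.

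The 5 genes with the smallest p were Exo1, Prim2, Pole2, Chaf1a and Cdc6. Exo1, an exonuclease of resection and mismatch repair, had 6.93, 6.24 and 6.76 in deficient and 7.59, 6.90 and 7.27 in adequate basophilic erythroblasts, a log2 difference of -0.61 (SE 0.21, limma adjusted p = 0.523). The lowest adequate array, replicate 2, lay among the deficient arrays. Prim2, the large subunit of primase, had 8.17, 7.37 and 8.50 in deficient and 9.24, 8.31 and 8.95 in adequate basophilic erythroblasts (log2 difference -0.82, SE 0.28, limma adjusted p = 0.542). Pole2, an accessory subunit of polymerase epsilon, had 7.12, 5.56 and 6.94 in deficient and 8.11, 7.03 and 7.72 in adequate cells (log2 difference -1.08, SE 0.39, limma adjusted p = 0.586). For both genes each deficient array was below the adequate array of its own number, and the groups overlapped through adequate replicate 2. Chaf1a, the large subunit of the histone chaperone CAF-1, had 8.82, 8.21 and 8.77 in deficient and 9.40, 8.79 and 9.26 in adequate cells (log2 difference -0.55, SE 0.20, limma adjusted p = 0.587). Cdc6, a loader of the MCM helicase, had 9.57, 8.39 and 9.51 in deficient and 10.24, 9.44 and 10.00 in adequate cells (log2 difference -0.74, SE 0.29, limma adjusted p = 0.659). Both again overlapped only because adequate replicate 2 lay near the deficient replicates 1 and 3.

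Arrays of the same number were also set against each other, although basophilic replicates 1 and 3 are not clearly paired by number. Deviations from group means correlated at 0.72, 0.78 and 0.54 for the same number in basophilic erythroblasts. Replicates 1 and 3 of opposite diets gave 0.51 and 0.60. The median over the 44 genes of the deficient minus adequate log2 difference was -0.50 in pair 1, -0.92 in pair 2 and -0.27 in pair 3 of the basophilic erythroblasts, beside medians over all genes of 0.01, 0.09 and -0.02. Of the 44 genes, 44, 43 and 41 were lower in the deficient array of these pairs. In 40 of them (90.9%) the deficient array was the lower one in all 3 pairs, which 16.2% of all genes tested showed, and the exceptions were Orc6, Cdt1, Gins3 and Chaf1b. In proerythroblasts the medians of the 3 pairs were 0.12, -0.19 and 0.16, and 13 genes were higher in the deficient array in all 3 pairs, where 24.5% of all genes were, and 9 were lower, where 24% were.

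**Figure D3:**
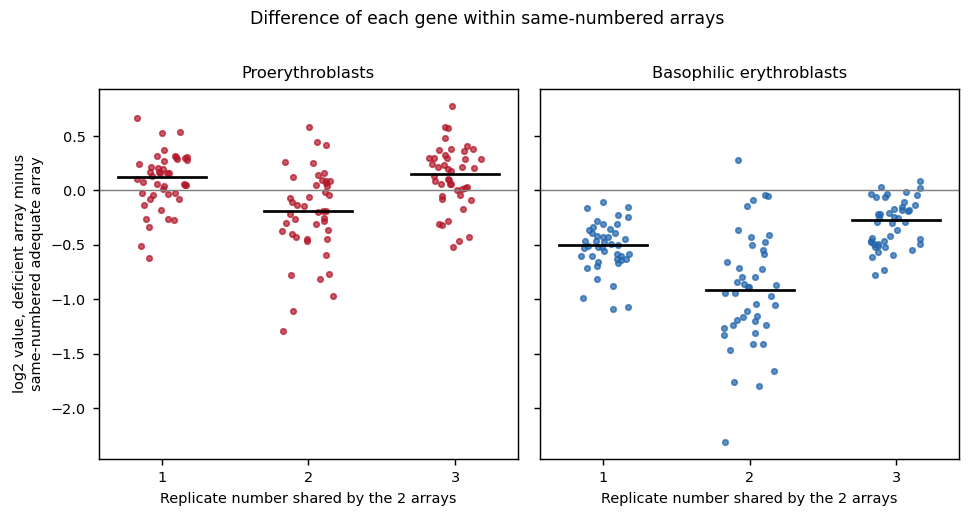
Log2 difference, deficient minus adequate array of the same replicate number, for the replication genes (points) in each of 3 pairs per stage. The basophilic medians are -0.50, -0.92 and -0.27 and nearly all points lie below 0, while the proerythroblast medians are 0.12, -0.19 and 0.16.

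With the replicate number as a block within each stage, 8 genes were called lower in deficient basophilic erythroblasts, where 0.944% of all genes were called lower: Prim2 (limma adjusted p = 0.0326), Cdc6 (0.0328), Rfc2 (0.0341), Exo1 (0.0342), Pole2 (0.0353), Mcm4 (0.0408), Rfc1 (0.0469) and Chaf1a (0.0473). In these cells that block mainly sets replicate 2 apart from replicates 1 and 3. Without replicate 2 of both basophilic groups the 44 genes were again all lower on the deficient diet, with a median of -0.38 beside -0.01 over all genes. Only Fen1 was then called, where 0.72% of all genes were called lower. Fen1, the flap endonuclease of Okazaki fragment maturation, had 7.66 and 7.69 in deficient replicates 1 and 3, against 8.13 and 8.28 in adequate replicates 1 and 3 (log2 difference -0.53, SE 0.10, limma adjusted p = 0.0293, n = 2 arrays each). In replicate 2 it had 7.63 in deficient and 7.67 in adequate cells. Without replicate 2, the groups did not overlap for 39 of the 44 genes, all lower on the deficient diet, where 23% of all genes were lower without overlap, and 25 of the 44 had an unadjusted p under 0.05, as did 2874 of the 20129 genes tested. With all 12 arrays no gene was without overlap, in a background of 3.9% lower and 4.13% higher.

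The size of the difference moved with single arrays. The median became -0.12 without deficient basophilic replicate 2, with 13 genes then positive, and -0.78 and -0.80 without deficient replicates 1 and 3. It became -0.35, -0.84 and -0.49 without adequate basophilic replicates 1, 2 and 3. Dtl, an adaptor that marks Cdt1 for degradation in S phase, had 9.10, 6.62 and 9.29 in deficient and 9.79, 8.42 and 9.32 in adequate basophilic erythroblasts. Tipin, which protects stalled forks together with Timeless, had 9.76, 6.86 and 9.80 in deficient and 10.25, 9.17 and 9.97 in adequate cells. In both genes deficient replicate 2 lay far below replicates 1 and 3 of its group. The 26 tested genes with an E2F-type motif in their window had a median log2 difference of -0.56 between the diets here, and the 9 with a window but no such motif had -0.49.

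**Figure D4:**
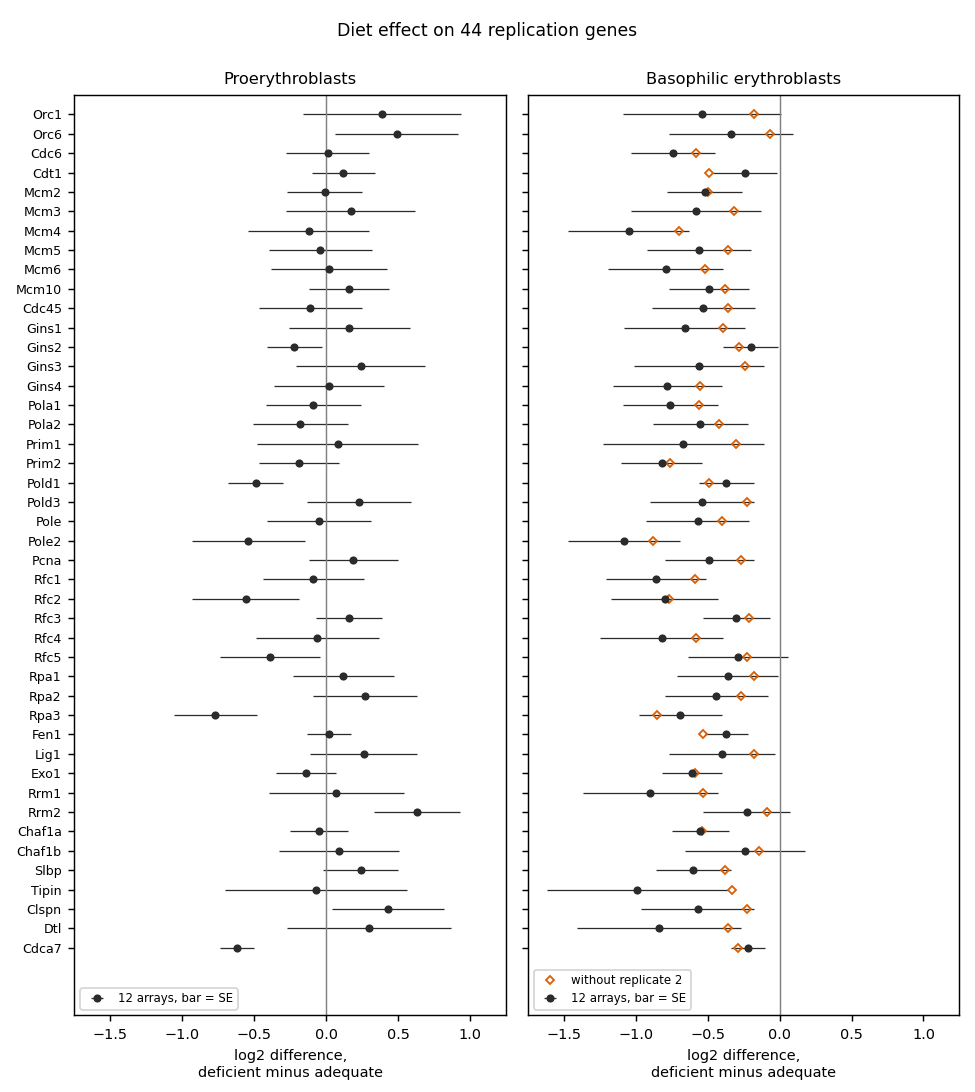
Log2 difference, deficient minus adequate, of each replication gene, ordered by role, in proerythroblasts and in basophilic erythroblasts; filled points with SE bars are from all 12 arrays and open diamonds are without replicate 2 of both basophilic groups. In basophilic erythroblasts every point lies below 0 in both settings, with medians of -0.56 and -0.38, while proerythroblast points lie on both sides of 0.

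The difference between the diet effects of the 2 stages was tested as an interaction, in which the proerythroblast diet effect is subtracted from the basophilic one. Of the 44 genes 39 were negative and 5 positive, with a median of -0.66 beside 0.03 over all genes, and none passed in limma on all 12 arrays, where 0.303% of all genes passed. An unadjusted p under 0.05 was found for 2 of the 44 (4.55%) and for 9.15% of all genes. Without replicate 2 of both basophilic groups it was found for 21 (47.7%) and for 18.7% of all genes. With the block within each stage it was found for 32 (72.7%) and for 19.2% of all genes. The smallest p belonged to Slbp, which binds the stem-loop of histone mRNA, with 9.10, 8.86 and 9.05 in deficient and 8.86, 8.74 and 8.68 in adequate proerythroblasts, then 8.50, 7.41 and 8.50 in deficient and 8.96, 8.45 and 8.80 in adequate basophilic erythroblasts. Its interaction was -0.84 on the log2 scale (SE 0.36, limma adjusted p = 0.487). Cdca7 had the opposite sign, 0.40 (SE 0.18, limma adjusted p = 0.516), since it was lower on the deficient diet by more in proerythroblasts than in basophilic erythroblasts, where it had 7.04, 7.18 and 7.02 in deficient and 7.15, 7.27 and 7.49 in adequate cells. Rrm2 had 10.54, 9.34 and 10.47 in deficient and 10.70, 9.84 and 10.50 in adequate basophilic erythroblasts, and an interaction of -0.86 (SE 0.42, limma adjusted p = 0.605). Without replicate 2 of both basophilic groups, 3 genes passed, where 1.47% of all genes passed as lower: Rrm2 (-0.73, SE 0.15, limma adjusted p = 0.0388), Slbp (-0.62, SE 0.14, 0.0452) and Fen1 (-0.55, SE 0.13, 0.0482). With the block within each stage Rrm2 passed alone (-0.86, SE 0.17, limma adjusted p = 0.0395), where 1.42% of all genes passed as lower.

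Next, basophilic erythroblasts were set against proerythroblasts of the same diet. These comparisons share arrays with the diet comparisons, so their values are given side by side and are not independent of them. On the deficient diet all 44 genes were lower in basophilic erythroblasts, by a median log2 difference of -1.30 beside 0.08 over all genes, and 40 of the 44 fell by the test, where 24.9% of all genes tested were called lower. The 4 that did not pass were Orc1, Prim1, Cdc45 and Rrm2. The background depended on the filter. Over the 11954 genes that passed a stricter filter (above 6.62 on at least 3 arrays), the median was -0.36 and 36.5% were called lower. In that fit 39 of the 44 were called lower. Dtl had 9.10, 6.62 and 9.29 in deficient basophilic erythroblasts, against 10.44, 10.61 and 10.31 in deficient proerythroblasts (log2 difference -2.12, SE 0.57, limma adjusted p = 0.0141). Mcm4, a helicase subunit, had 9.40, 7.48 and 9.30 in deficient basophilic erythroblasts, against 10.77, 10.45 and 10.49 in deficient proerythroblasts (log2 difference -1.84, SE 0.42, limma adjusted p = 0.00848). Mcm3, another subunit, had 9.94, 8.01 and 9.87 in deficient basophilic erythroblasts, against 11.13, 11.00 and 10.98 in deficient proerythroblasts (log2 difference -1.76, SE 0.45, limma adjusted p = 0.0119). No basophilic array of these 3 genes reached the lowest proerythroblast array, and replicate 2 was the lowest. In all, 42 genes were without overlap, where 29.6% of all genes were lower without overlap, and the exceptions were Orc1 and Rrm2. Without replicate 2 the median was -0.79 and 40 genes were called lower, where 26.6% of all genes were. Without replicate 3, whose description names proerythroblasts, the median was -1.54 and 42 genes were called lower, where 27.5% of all genes were.

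By role, the medians on the deficient diet ran from -1.65 for fork protection, checkpoint and S phase regulation to -0.87 for chromatin assembly and histone mRNA. All 6 genes of the clamp and its loader fell, from -1.73 (Rfc4) to -0.93 (Pcna), and 8 of the 9 tested licensing genes fell, with Orc1, the large subunit of the origin recognition complex, the exception at -0.80 (limma adjusted p = 0.221).

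On the adequate diet 12 of the 44 genes fell in basophilic erythroblasts, close to the 25.6% of all genes tested that were called lower, so the count does not set these genes apart. They were Cdca7, Exo1, Rfc3, Pold1, Gins2, Rfc5, Rpa3, Pola2, Cdt1, Pole, Pole2 and Mcm10. In mean, 42 genes were lower and 2, Rrm2 and Orc1, were higher, and the median log2 difference was -0.69 beside 0.12 over all genes. With the stricter filter the median over all genes was -0.31, and 10 of the 44 were called lower, where 37.6% of all genes were. Cdca7 had 7.15, 7.27 and 7.49 in adequate basophilic erythroblasts, against 9.28, 9.37 and 9.16 in adequate proerythroblasts (log2 difference -1.97, SE 0.12, limma adjusted p = 1.21e-06). Rfc5, a clamp loader subunit, had 8.43, 7.31 and 8.32 in adequate basophilic erythroblasts, against 9.24, 9.34 and 9.14 in adequate proerythroblasts (log2 difference -1.22, SE 0.35, limma adjusted p = 0.0159). Exo1 had 7.59, 6.90 and 7.27 in adequate basophilic erythroblasts, against 8.62, 8.39 and 8.23 in adequate proerythroblasts (log2 difference -1.16, SE 0.21, limma adjusted p = 0.00115). The groups of these 3 genes did not overlap, as held for 27 of the 44 genes in this direction, where 32.6% of all genes did.

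Without replicate 2 of both basophilic groups, 24 genes were called lower on the adequate diet and 2 higher, where 29.3% and 38.9% of all genes were. The 2 were Rrm2, at 0.57 (SE 0.11, limma adjusted p = 0.00166), and Orc1, at 0.56 (SE 0.19, limma adjusted p = 0.0257). The direction of these stage differences also depended on scaling: with quantile normalization 8 genes were positive on the adequate diet, with a median of -0.34, and the calls were 1 higher and 3 lower, where 13.9% of all genes were called higher and 18.1% lower. On the deficient diet 29 were then called lower, where 16.8% of all genes were, and 1 was positive. Centring each array on its median moved the median of all genes from 0.08 to -0.12 on the deficient diet and from 0.12 to -0.09 on the adequate diet.

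**Figure D5:**
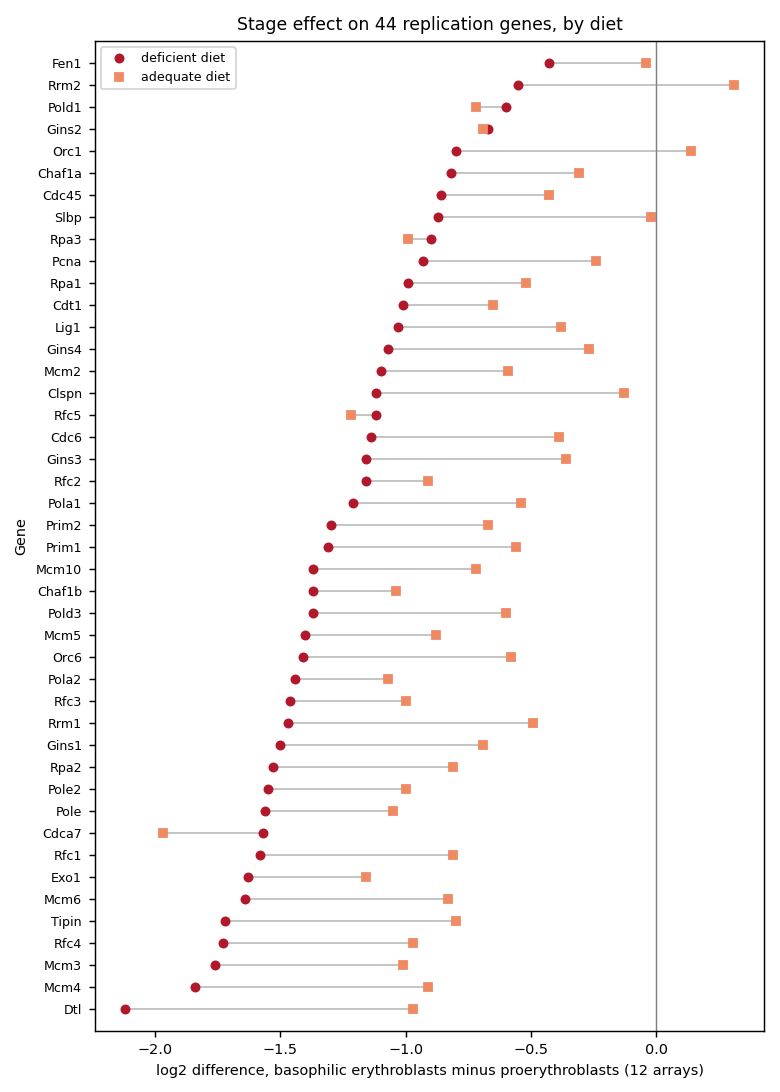
Log2 difference, basophilic erythroblasts minus proerythroblasts, of each replication gene on the deficient diet (circles) and the adequate diet (squares), sorted by the value on the deficient diet. Values run from -2.12 to -0.43 on the deficient diet and from -1.97 to 0.31 on the adequate diet, with Rrm2 and Orc1 above 0 on the adequate diet.

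A second list of 54 replication genes outside the 45, of which 49 were tested, gave counts in the same comparisons. In basophilic erythroblasts none of the 49 passed between the diets on all 12 arrays without a block, with a median of -0.29. With the block within each stage Dck, Asf1a, Mms22l and Orc2 were called lower on the deficient diet (limma adjusted p = 0.034 to 0.0456), where 0.944% of all genes were. Without replicate 2 Asf1a was called lower (limma adjusted p = 0.0348), where 0.72% of all genes were. In proerythroblasts Esco2, an acetyltransferase of sister chromatid cohesion, rose on the deficient diet (log2 difference 0.59, limma adjusted p = 0.0192) and Atr, the kinase that senses stalled forks, fell (-0.83, limma adjusted p = 0.0124), where 1.27% of all genes were called higher and 2.76% lower. On the deficient diet 30 fell and 1 rose in basophilic erythroblasts against proerythroblasts, where 24.9% of all genes were called lower and 31.1% higher. On the adequate diet 19 fell and 2 rose, where 25.6% were called lower and 28.7% higher. The medians were -0.82 and -0.43.

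Of the genes outside the lists, those most like the mean of the 44 across the 12 arrays were Ppp4r3a (Pearson r 0.992), Cbx3 (0.992), Gm7488 (0.991), Hat1 (0.991) and Smchd1 (0.990). Without replicate 2 of both basophilic groups these correlations over 10 arrays were 0.985, 0.971, 0.963, 0.976 and 0.956. The arrays share the stage difference and the low replicate 2, so the correlations describe a common pattern and carry no p.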

How the data were processed

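RNA (5 ng) from 12 sorted samples was labelled with the GeneChip WT Pico kit and hybridised to Affymetrix arrays, per the labels. The authors deposited log2 signals for 72688 features, made with Affymetrix Expression Console per the submitters' processing notes. The version and the normalization method are not given in the sources used here, and the scanner files were not used here. Of the features, 186 were controls, 31258 name 1 gene, 1492 several and 39938 none. For 442 genes with several features, the one with the highest mean was used. Genes above 5.30 (the median of all values) on at least 3 arrays were tested, 20129 in all, with limma 3.58.1 in R 4.3.3: a mean per group over 12 arrays, empirical Bayes, Benjamini-Hochberg adjustment over all genes tested, threshold 0.05, after a check on simulated data. Summaries were made with Python 3.11.15. The number of arrays limits the precision.

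Same-numbered arrays of the 2 diets deviated together (correlation of deviations from group means over genes tested 0.46, 0.18 and 0.52 in proerythroblasts, 0.72, 0.78 and 0.54 in basophilic erythroblasts), so the replicate number was also fitted as a block within each stage. Arrays of unlike number gave -0.40 to 0.08 in proerythroblasts. In basophilic erythroblasts replicates 1 and 3 of opposite diets also deviated together (0.51 and 0.60), and replicate 2 against replicates 1 and 3 gave -0.76 to -0.57. The basophilic correlations thus mainly set replicate 2 apart and do not clearly pair replicates 1 and 3 by number. Across stages the correlation for the same number was 0.25, 0.19 and 0.10 on the deficient and 0.21, -0.07 and -0.17 on the adequate diet, and stages were not paired. Values per array are given for up to 5 genes per diet comparison and 3 per other comparison with the largest change among those past the threshold or, where fewer passed, with the smallest p. Dtl, Tipin, Fen1, Orc6 and the printed promoters were chosen after values were seen. The genes and lists were chosen with earlier results of these data known. Alternatives covered scaling, filters, array weights, variance model, feature choice, arrays fitted, blocks and left-out arrays.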

Additional observations from a re-analysis of the deposited data

Results flagged for a closer look

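The diet effect differed between the stages, by the interaction term in limma, for 3 genes when replicate 2 of both basophilic groups was left out. That fit holds 2 basophilic arrays per diet, and 1.47% of all genes passed as lower in it. Rrm2 had -0.73 (SE 0.15, adjusted p = 0.0388), Slbp had -0.62 (SE 0.14, adjusted p = 0.0452) and Fen1 had -0.55 (SE 0.13, adjusted p = 0.0482), each on the log2 scale, with the proerythroblast diet effect subtracted from the basophilic one. With the replicate number as a block within each stage, Rrm2 had -0.86 (SE 0.17, limma adjusted p = 0.0395), where 1.42% of all genes passed as lower. On all 12 arrays without a block none of the 3 passed in limma, with adjusted p of 0.605 for Rrm2, 0.487 for Slbp and 0.694 for Fen1. Of the 44 genes tested, 2 (4.55%) had an unadjusted p under 0.05 there, against 9.15% of all genes. The shares were 47.7% against 18.7% without replicate 2, and 72.7% against 19.2% with the block within each stage.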

How the results depend on the processing

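Of the counts of called genes and the medians over the 44 genes under each alternative, 99 stayed within their limits and 15 moved, single arrays left out aside. Those that moved were counts, and no median did. A median stayed if it shifted by less than the spread of per-array medians within the groups, which basophilic replicate 2 widens. By that limit even -0.12 in place of -0.56 between the diets in basophilic erythroblasts stayed, so the limit could hardly be passed there. The median in proerythroblasts between diets, 0.02 in the fit reported, became -0.06 with median centring and -0.01 with array weights. The count in proerythroblasts between diets was 1, and became 11 with array weights (4 higher, 7 lower), where 39.8% of all genes were called, 5 with the block within each stage (11.1%), 4 without replicate 2 of both basophilic groups (16.4%) and 3 with the contrast's arrays alone (12%). In basophilic erythroblasts the count of 0 became 8 with the block within each stage (1.45% of all genes) and 1 without replicate 2 (2.09%). The interaction's 0 became 1 with that block (2.93%) and 3 without replicate 2 (3.48%). The deficient stage count of 40 became 18 with the contrast's arrays alone, all lower, where 11.1% of all genes were called lower. The adequate stage count of 12, all lower, stood beside 25.6% of all genes called lower in the fit reported. With the replicate number as a block it became 24, all lower, where 28.2% of all genes were called lower. At an adjusted p of 0.1 it became 23 (29.4%), and 27 with the contrast's arrays alone (29.2%), again all lower. With array weights it became 24 (1 higher, 23 lower), where 37.2% of all genes were called higher and 29% lower. Without replicate 2 it became 26 (2 higher, 24 lower), where 38.9% and 29.3% were. With quantile normalization it became 4 (1 higher, 3 lower), where 13.9% and 18.1% were. The cause was not tested.

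Leaving out each array in turn, the count was 0 to 1 for proerythroblasts between diets (median -0.08 to 0.12), 0 for basophilic erythroblasts (median -0.84 to -0.12) and 0 for the interaction (median -0.90 to -0.22). Of all genes, 1.56% to 8.98%, 0% to 1.44% and 0.0596% to 1.4% were called in these comparisons. The count was 21 (without deficient proerythroblast replicate 1) to 42 (without deficient basophilic replicate 3) for the deficient stage comparison (median -1.54 to -0.79). Of all genes, 16.4% and 27.5% were called lower in these 2 fits. Without deficient proerythroblast replicate 3 the count was 22, where 14.8% of all genes were called lower. For the adequate stage comparison it was 3 (without adequate basophilic replicate 2) to 30 (without deficient basophilic replicate 2), with medians of -0.88 to -0.44. Of all genes, 18.1% and 31.1% were called lower in these 2 fits. Without adequate proerythroblast replicates 1 and 2 the counts were 5 and 4, where 19.4% and 19.2% of all genes were called lower. Rfc5 lost its call with some arrays left out, with limma adjusted p up to 0.0681. With the replicate number as 1 block over both stages, the counts were 1, 0, 0, 42 and 24 for the comparisons in the order of the text. Of all genes, 5.46%, 0.0944%, 0.318%, 62.7% and 61.1% were called in either direction there. All calls in the stage comparisons were lower, where 28.7% and 28.2% of all genes were called lower. The block within each stage cannot test stage effects, the interaction cannot be fitted on 1 contrast's arrays, and array weights ended with a convergence warning. Among the genes given with values, 198 checks kept their call, 19 gained it and 2 lost it, arrays left out aside: Dtl on the deficient diet with the contrast's arrays alone (adjusted p = 0.0566) and Rfc5 on the adequate diet with quantile normalization (0.061). Raised background on both basophilic replicate 2 arrays limits what low signals can show there.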

Other observations

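A list of 30 G2 and mitosis genes, 28 of them tested, gave different counts with and without replicate 2 of both basophilic groups. On the adequate diet without it, 23 of the 28 rose in basophilic erythroblasts against proerythroblasts (limma, median log2 difference 0.68, where 38.9% of all genes were called higher), among them Ect2, a regulator of cytokinesis (1.04, adjusted p = 1.12e-05), and Cenpf, a kinetochore protein (1.27, adjusted p = 1.65e-05). On the deficient diet without it, 5 rose and 1 fell (median 0.11, where 32.1% of all genes were called higher and 26.6% lower). With all 12 arrays, 3 rose on the adequate diet (median 0.37, where 28.7% of all genes were called higher) and 2 rose on the deficient diet (median -0.51, where 31.1% were). Between the diets in basophilic erythroblasts all 28 were lower in mean on the deficient diet with all 12 arrays (median -0.48) and none passed. Without replicate 2 the median was -0.18 and the log2 differences ran from -0.52 to 0.23. Anln was then called lower (limma adjusted p = 0.0432), where 0.72% of all genes were. No difference between this list and the replication genes was tested.

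Of 29 tested genes of the G1 to S control, 3 rose and 3 fell in deficient proerythroblasts against adequate ones on all 12 arrays, where 1.27% of all genes were called higher and 2.76% lower. The counts were 10 higher and 5 lower with the block within each stage (4.04% and 7.05% of all genes), and leaving out basophilic replicate 2 gave 14 higher and 5 lower (6.97% and 9.38%). E2f2, an E2F activator, rose by 1.90 on the log2 scale (limma adjusted p = 4.67e-05, all 12 arrays) and Cdkn1a, an inhibitor of cyclin-dependent kinases, by 2.76 (0.0178), while Myb fell by 2.06 (2.55e-04) and Cdk6 fell by 1.36 (0.00289). Between the diets in basophilic erythroblasts none of the 29 passed on all 12 arrays without a block. Ccnd2, a cyclin of G1, was called higher on the deficient diet without replicate 2 (1.46, limma adjusted p = 0.00821) and with the block within each stage (1.14, 0.037).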
